A study of Mus musculus with 9 samples.

Results

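The muscle coat of the mouse colon was followed through 31 genes, of which 29 belong to smooth muscle cells and 2, Kit and Ano1, to the interstitial cells of Cajal. The genes were taken from a list of muscle and pacemaker genes and matched by symbol, a step that uses no measured value. The list itself was chosen with earlier results of these data known. All 31 were found among the 54491 rows of the table, and all 31 passed the filter on low values that left 17907 genes for testing. RNA of colon tissue was sequenced in 9 libraries, 3 in each of 3 groups. The first group, called HFD-Pc here, was fed a high-fat diet and was dosed by stomach tube (gavage) with the gut bacterium Papillibacter cinnamivorans (replicates 1, 3 and 4). The second, called HFD, was fed the high-fat diet alone (replicates 1, 2 and 4). The control group had replicates 1, 2 and 3. All were C57BL/6 mice at postnatal day 98, from a study that began with 45 mice of 6 weeks in groups of 15. Gavage is named for the HFD-Pc group alone, so the bacterium and the gavage cannot be told apart. Neither the stretch of colon sampled nor the completeness of the muscle coat is labelled, and no label ties each library to its own mouse. The spread behind each p-value is thus that between libraries, which may be technical.

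Smooth muscle shortens when calcium activates myosin light chain kinase, which phosphorylates the regulatory light chain and lets myosin pull on actin. The contractile genes are switched on together by serum response factor and its partner myocardin, which act at a short DNA element called the CArG box. Interstitial cells of Cajal lie in the muscle coat, depend on the receptor Kit, and pace the gut by slow waves that need the chloride channel Ano1.

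Values are FPKM, a level scaled for the length of the transcript and for how many fragments were mapped. Differences are on the log2(FPKM + 1) scale with their standard error (SE), and a gene was called at a Benjamini-Hochberg adjusted p below 0.05 in limma. Total depth is unknown, and the deepest library had 1.34 times the relative depth of the shallowest. Epithelial genes were abundant in every library, with a summed FPKM of 5670 to 6993 in HFD-Pc, 5938 to 6711 in HFD and 6208 to 11324 in control. The smooth muscle genes were present throughout: 7 of the 31 stood at 100 FPKM or more in every library, 18 at 10 FPKM or more, and none was at 0. Means over the 9 libraries ran from 730 FPKM for Actg2 and 711 FPKM for Acta2 down to 0.791 FPKM for Myocd and 0.636 FPKM for Chrm3.

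One library stood apart from the rest. Control replicate 1 was the highest of the 9 libraries for 27 of the 31 genes, against 19.1% of all genes tested. It was the highest of its own group for all 31 genes, against 38.9% of all genes tested. Its level was a median of 3.80 times the mean of the other 2 control libraries, from 1.51 times for Ldb3 to 8.39 times for Synm, whereas the median over all genes was 0.961 times. Summed over the 31 genes, the level was 5176, 2889 and 3295 FPKM in HFD-Pc, 2489, 2493 and 2215 FPKM in HFD, against 11608, 3257 and 2478 FPKM in control. These sums were 1.15%, 0.778% and 0.834% of all FPKM in HFD-Pc, 0.707%, 0.715% and 0.633% in HFD, and 3.02%, 0.716% and 0.566% in control. The HFD libraries lay close together, and control replicates 2 and 3 lay within or near the range of the other groups. The first HFD-Pc library was also high: it was the highest of the 8 remaining libraries for 26 genes, against 13.7% of all genes tested, and the highest of its own group for 28, against 32.1%. In bulk tissue, fewer muscle cells and less RNA per muscle cell cannot be told apart. Because control replicate 1 moves most results, each comparison of the 31 genes is given with and without it, and so are the counts of other lists in HFD against control where they differ.

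**Figure D1:**
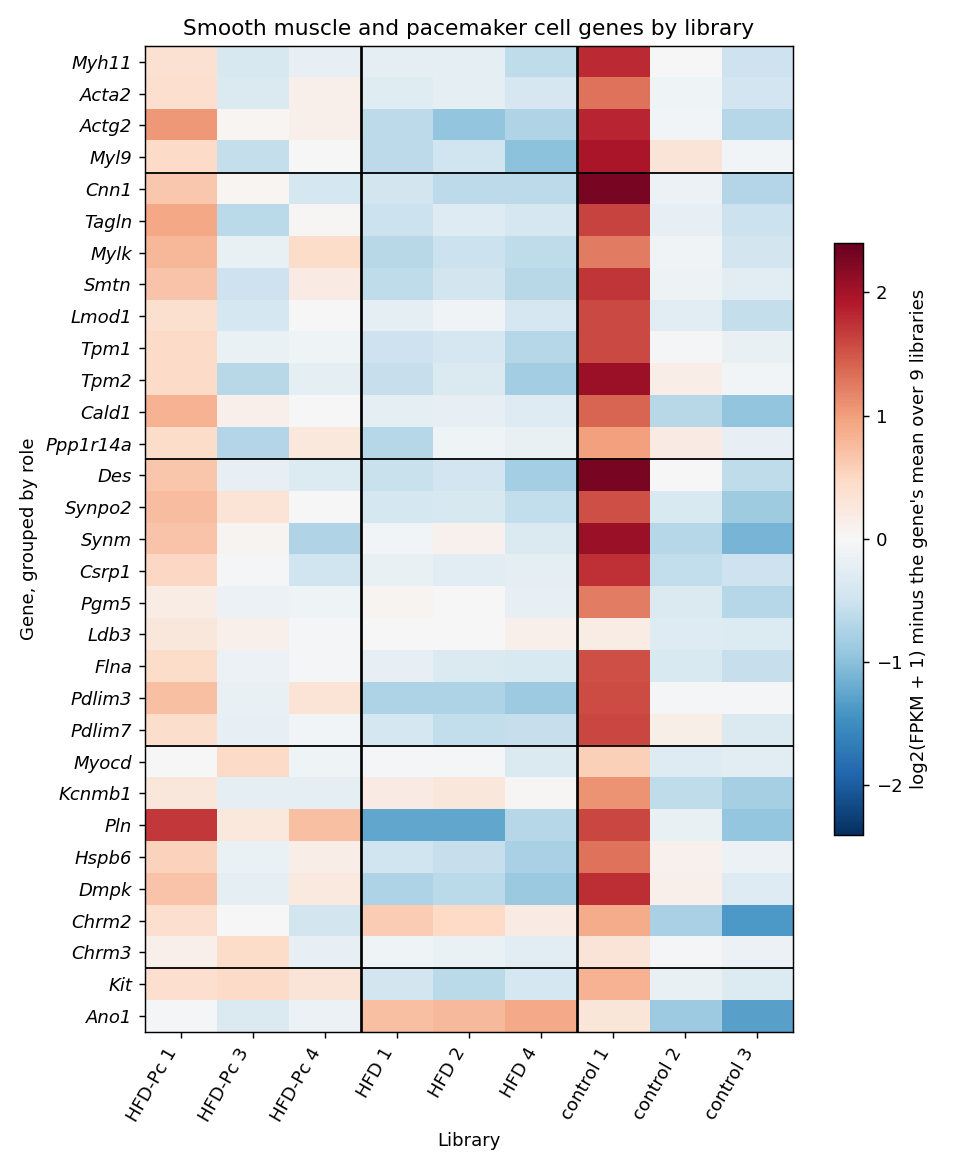
Level of each of the 31 genes (rows, grouped by role) in each of the 9 libraries (columns), as log2(FPKM + 1) minus the mean of that gene over the 9 libraries. The column of control replicate 1 is high in nearly every row, the first HFD-Pc library is moderately high, and the rows of Kit and Ano1 differ from each other in the HFD libraries.

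The heat map of the 31 genes by library shows this library and the few rows that depart from it. The spread within groups followed the same libraries. The median standard deviation of the 31 genes on the log2(FPKM + 1) scale was 0.42 within HFD-Pc, 0.12 within HFD and 1.10 within control, against 0.20, 0.12 and 0.23 over all genes tested. Without control replicate 1, the median for the remaining pair of control libraries was 0.23, against 0.13 over all genes.

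The promoters of the set were searched for the CArG box because it is the element through which smooth muscle genes are jointly controlled. Promoter windows of 300 bases (250 before to 50 after the transcript start, RefSeq, build GRCm38.p6) were found for 27 of the 31 genes; Actg2, Myocd, Tagln and Myh11 were not matched. The palindromic box was searched on both strands. It lay in a window of 2 of these 27 genes, Myl9 and Ldb3, and of 1.81% of all genes with a window. A looser form, chosen after the first search, allowed at most 1 C or G in the 6 bases of the core. It lay in a window of 6 of the 27 genes (Acta2, Hspb6, Ldb3, Myl9, Pdlim3 and Synm) and of 11.3% of all genes with a window, or in 7 of 32 windows of the set and 9.98% of all 32851 windows. The 3 windows below were chosen as those of the regulatory light chain, a protein that binds alpha-actinin and the most used smooth muscle marker. Capitals mark the palindromic box in Myl9 and Ldb3, and the looser form in Acta2. The Myl9 window holds 2 boxes when the looser form is counted, of which only the palindromic one is marked. The Myl9 window is chr2:156775214-156775513 on the plus strand, with the box starting 161 bases before the transcript start. The Ldb3 window is chr14:34588558-34588857 on the minus strand, with the box 109 bases before the start. The Acta2 window is chr19:34255324-34255623 on the minus strand, with boxes of the looser form 84 and 34 bases before the start.
Myl9: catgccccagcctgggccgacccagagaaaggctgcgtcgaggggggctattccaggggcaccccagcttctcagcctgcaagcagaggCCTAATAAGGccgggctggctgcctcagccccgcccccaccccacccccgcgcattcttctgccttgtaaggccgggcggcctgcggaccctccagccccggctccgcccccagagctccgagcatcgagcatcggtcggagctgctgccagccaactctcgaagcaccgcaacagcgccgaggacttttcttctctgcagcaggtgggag
Ldb3: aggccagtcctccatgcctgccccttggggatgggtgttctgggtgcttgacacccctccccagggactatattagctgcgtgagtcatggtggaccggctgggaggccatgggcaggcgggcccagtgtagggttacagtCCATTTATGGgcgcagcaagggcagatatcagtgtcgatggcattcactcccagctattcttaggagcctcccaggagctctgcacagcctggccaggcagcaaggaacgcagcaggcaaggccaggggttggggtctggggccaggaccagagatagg
Acta2: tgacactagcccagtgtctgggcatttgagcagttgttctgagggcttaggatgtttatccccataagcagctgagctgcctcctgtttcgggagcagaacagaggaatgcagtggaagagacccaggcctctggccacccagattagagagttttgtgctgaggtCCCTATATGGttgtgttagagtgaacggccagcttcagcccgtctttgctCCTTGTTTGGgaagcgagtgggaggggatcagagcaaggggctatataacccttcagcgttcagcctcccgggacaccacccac
A match describes letters in a window and not a bound site. Of the 2 genes with the palindromic box, Myl9 stood at 218 to 598 FPKM outside control replicate 1 and at 1699 FPKM in it. Ldb3 varied less over the 9 libraries than any other gene of the set, with a standard deviation of 0.20.

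The contractile motor comprises Acta2 and Actg2, the vascular and enteric smooth muscle actins, Myh11, the smooth muscle myosin heavy chain, and Myl9, the regulatory light chain. Acta2 stood at 867, 515 and 713 FPKM in HFD-Pc, 538, 565 and 496 FPKM in HFD, against 1618, 609.8 and 475 FPKM in control. Actg2 stood at 1227, 609.9 and 642 FPKM in HFD-Pc, 385, 309 and 357 FPKM in HFD, against 2110.3, 567 and 367 FPKM in control. Both actins were highest in control replicate 1, and for Actg2 all 3 HFD-Pc libraries lay above all 3 HFD libraries. The actins are near-identical paralogs, so the split of reads between them is uncertain. Myh11 stood at 243, 145 and 166 FPKM in HFD-Pc, 160.5, 164 and 125 FPKM in HFD, against 656, 189 and 134 FPKM in control. Its groups overlapped in every comparison. Myl9 had 598, 290.5 and 433 FPKM in HFD-Pc, 279.5, 312 and 218 FPKM in HFD, against 1699, 540.2 and 414 FPKM in control. All 3 HFD libraries of Myl9 lay below all 3 control libraries. None of the 4 genes passed the test in HFD against control, where their differences ran from -1.44 (Myl9, SE 0.50, adjusted p = 0.074) to -0.55 (Acta2, SE 0.42, adjusted p = 0.39). Without control replicate 1 the same 4 differences ran from -0.82 to -0.02, and again none was called.

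The regulators of the motor were also highest in control replicate 1, and Mylk separated HFD from both other groups. Mylk encodes myosin light chain kinase and had 122, 61.3 and 94.99 FPKM in HFD-Pc, 43.7, 48.4 and 44.98 FPKM in HFD, against 168, 65.5 and 51.0 FPKM in control. Its HFD libraries lay below every library of both other groups. Against HFD, Mylk in HFD-Pc differed by 0.95 (SE 0.41, adjusted p = 0.18), and without control replicate 1 by the same amount with SE 0.23 and adjusted p = 0.025. Cnn1, the actin-binding calponin of smooth muscle, had 339, 223 and 162 FPKM in HFD-Pc, 159, 139 and 139 FPKM in HFD, against 1053, 197 and 132 FPKM in control. Tagln, the actin-binding protein transgelin, had 17.6, 5.31 and 8.96 FPKM in HFD-Pc, 5.90, 6.90 and 6.46 FPKM in HFD, against 29.4, 7.60 and 5.88 FPKM in control. For Cnn1, HFD-Pc and HFD did not overlap, while the Tagln groups overlapped throughout. In the GENCODE annotation 67.9% of the exonic bases of Tagln overlap genes on the other strand, and the strand setting of the counting is not given, so its level is uncertain. The other 6 regulators were Smtn (smoothelin), Lmod1 (leiomodin), Tpm1 and Tpm2 (tropomyosins), Cald1 (caldesmon) and Ppp1r14a, an inhibitor of myosin phosphatase. In HFD against control the 9 regulators had a median difference of -0.84, with all 9 below 0 and none called. Without control replicate 1 their median was -0.31, with 7 below 0 and none called.

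Des encodes desmin, the intermediate filament of muscle, and varied about as much as Cnn1. It had 387, 211 and 194 FPKM in HFD-Pc, 167, 176 and 138 FPKM in HFD, against 1176, 242 and 159.7 FPKM in control. Desmin in HFD overlapped control, and all HFD-Pc libraries were above all HFD libraries. Pdlim3, which ties alpha-actinin to the contractile apparatus, had 45.4, 23.8 and 34.0 FPKM in HFD-Pc, 15.7, 15.8 and 14.2 FPKM in HFD, against 81.6, 26.2 and 26.1 FPKM in control. The 3 HFD libraries of Pdlim3 were the lowest of the 9. Its difference in HFD against control was -1.28 (SE 0.41, adjusted p = 0.060), and without control replicate 1 it was -0.75 (SE 0.23, adjusted p = 0.047). In HFD-Pc against HFD it was 1.08 (SE 0.41, adjusted p = 0.13), and without control replicate 1 the adjusted p was 0.0086. Ldb3, a PDZ and LIM domain protein that binds alpha-actinin, was the steadiest gene, with 5.94, 5.24 and 4.62 FPKM in HFD-Pc, 4.73, 4.78 and 5.23 FPKM in HFD, against 5.49, 3.66 and 3.59 FPKM in control. Synm (synemin), Synpo2, Csrp1, Pgm5, Flna (filamin A) and Pdlim7 complete the filament and adhesion group. Across these 9 genes the median difference in HFD against control was -0.51, and it was 0.16 without control replicate 1.

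The genes of transcriptional control, receptors and ion handling did not all rank the groups alike. Myocd, the coactivator myocardin, was low, at 0.757, 1.42 and 0.629 FPKM in HFD-Pc, 0.706, 0.720 and 0.382 FPKM in HFD, against 1.61, 0.421 and 0.473 FPKM in control. Chrm3, the muscarinic receptor that triggers contraction, was also low, at 0.755, 1.20 and 0.409 FPKM in HFD-Pc, 0.503, 0.455 and 0.338 FPKM in HFD, against 1.01, 0.591 and 0.465 FPKM in control. At these levels the log2(FPKM + 1) scale understates any change, and the groups of both genes overlapped. Chrm2, the more abundant muscarinic receptor, had 6.32, 4.57 and 3.08 FPKM in HFD-Pc, 7.47, 6.72 and 5.38 FPKM in HFD, against 9.25, 2.23 and 1.15 FPKM in control. Its HFD libraries lay above control replicates 2 and 3 but below control replicate 1. The difference in HFD against control was 0.85 (SE 0.50, adjusted p = 0.26), and without control replicate 1 it was 1.504 (SE 0.27, adjusted p = 0.0058). Kcnmb1, the smooth muscle subunit of the large calcium-activated potassium channel, had 4.90, 3.19 and 3.20 FPKM in HFD-Pc, 4.61, 4.88 and 3.98 FPKM in HFD, against 9.33, 2.22 and 1.81 FPKM in control. Its HFD libraries likewise lay between control replicate 1 and the other control libraries, with a difference of 0.27 (SE 0.43, adjusted p = 0.69) in HFD against control, and 0.86 (SE 0.18, adjusted p = 0.0096) without control replicate 1.

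Pln encodes phospholamban, the brake on the calcium pump of the sarcoplasmic reticulum, and was the most variable gene of the 31. It had 16.8, 5.52 and 8.06 FPKM in HFD-Pc, 1.31, 1.29 and 2.42 FPKM in HFD, against 15.6, 3.83 and 1.89 FPKM in control. All 3 HFD-Pc libraries lay above all 3 HFD libraries, while HFD overlapped control. The difference in HFD-Pc against HFD was 1.95 (SE 0.60, adjusted p = 0.070), and without control replicate 1 the adjusted p was 0.0092. In GENCODE 64.7% of the exonic bases of Pln overlap Cep85l and another gene on the other strand, so reads of these genes cannot be told apart. Hspb6, a small heat shock protein of relaxing smooth muscle, had 24.1, 14.2 and 18.2 FPKM in HFD-Pc, 11.3, 10.6 and 9.02 FPKM in HFD, against 41.0, 17.4 and 14.5 FPKM in control. Dmpk, the myotonic dystrophy protein kinase, had 73.1, 37.9 and 53.2 FPKM in HFD-Pc, 26.6, 28.2 and 23.8 FPKM in HFD, against 156, 49.0 and 35.9 FPKM in control. For both genes the 3 HFD libraries were the lowest of the 9.

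The 2 genes of interstitial cells of Cajal stood on opposite sides in HFD, with Ano1 high and Kit low. Kit, the receptor tyrosine kinase these cells need, had 12.7, 13.2 and 11.8 FPKM in HFD-Pc, 6.58, 5.59 and 6.66 FPKM in HFD, against 17.4, 8.07 and 7.20 FPKM in control. Ano1, the chloride channel of the slow wave, had 13.7, 10.7 and 12.6 FPKM in HFD-Pc, 23.9, 24.6 and 27.2 FPKM in HFD, against 17.3, 7.17 and 5.07 FPKM in control. HFD had the 3 lowest Kit values and the 3 highest Ano1 values of the 9 libraries. Ano1 rose in HFD, averaging 25.2 ± 1.73 FPKM in HFD and 9.84 ± 6.53 FPKM in control (SD, n = 3 each), a difference of 1.44 (SE 0.34, limma adjusted p = 0.020). It was called in 14 of 19 alternative settings, with adjusted p-values between 5e-06 and 0.075. The call was lost without HFD replicate 1 (adjusted p = 0.060), HFD replicate 2 (0.060), HFD replicate 4 (0.075) or control replicate 2 (0.067), and with a replicate block (0.065). Kit averaged 6.28 ± 0.594 FPKM in HFD and 10.9 ± 5.67 FPKM in control, a difference of -0.61 (SE 0.27, limma adjusted p = 0.14). In HFD-Pc against HFD, Kit differed by 0.90 (SE 0.27, limma adjusted p = 0.063) and Ano1 by -0.98 (SE 0.34, limma adjusted p = 0.10). Without control replicate 1 these adjusted p-values were 0.00077 and 0.0026, with the differences unchanged because control libraries do not enter them.

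**Figure D2:**
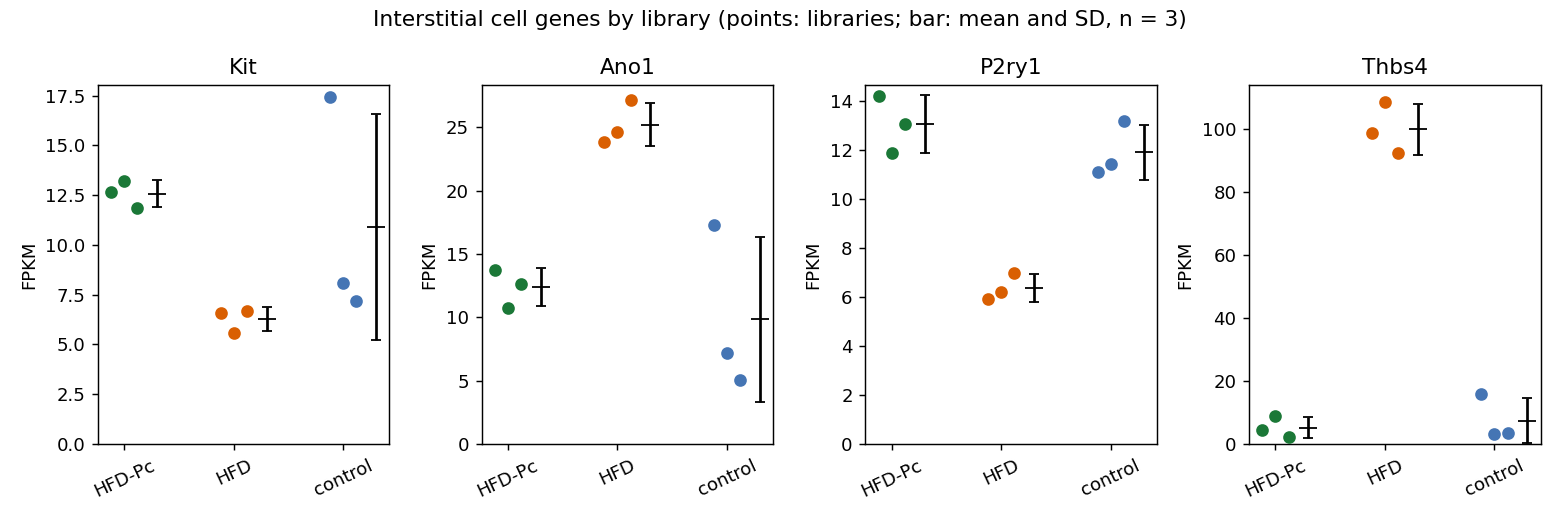
FPKM of Kit, Ano1, P2ry1 and Thbs4 in each library (points) with the mean and SD of each group (bars, n = 3). In HFD, Kit and P2ry1 are below and Ano1 and Thbs4 above the other groups, and control replicate 1 is the highest control point for Kit, Ano1 and Thbs4 but not for P2ry1.

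The ratio of Ano1 to Kit within a library removes any factor that scales both genes alike. It was 1.08, 0.814 and 1.07 in HFD-Pc, 3.63, 4.41 and 4.08 in HFD, and 0.992, 0.888 and 0.704 in control. Control replicate 1 lay with the other control libraries here. The log2 ratio differed by 2.24 between HFD and control and by -2.04 between HFD-Pc and HFD, each with a 2-sided exact permutation p of 0.10, the smallest that 3 against 3 allows (0.18 adjusted over 9 such tests). Since HFD held the 3 lowest Kit and the 3 highest Ano1 values, this ratio had to separate HFD fully. Its p was thus fixed by those ranks and is no further support. Mast cells also carry Kit. The summed level of 12 mast cell genes was 2.59 to 6.64 FPKM in HFD-Pc, 17.2 to 26.7 FPKM in HFD and 2.44 to 9.81 FPKM in control. Of the 4 mast cell genes tested, 1 was called higher in HFD than in control. This was the chymase gene Cma1, which made up most of the HFD sum. Cma1 had 9.39, 12.9 and 14.6 FPKM in HFD and at most 0.424 FPKM in any other library. It thus passed the filter on low values through the HFD libraries alone. With any HFD library left out Cma1 was not tested, and its call held in the other 6 fits with 1 library left out. The mast cell genes Cpa3, Fcer1a, Ms4a2 and Tpsab1 were under 1 FPKM in every library, but Mcpt1 and Mcpt2 were higher. Mcpt1 had 1.13, 3.67 and 3.65 FPKM in HFD-Pc, 3.997, 5.11 and 6.87 FPKM in HFD, against 0.638, 5.27 and 3.39 FPKM in control. Mcpt2 had 0.674, 1.07 and 1.23 FPKM in HFD-Pc, 1.51, 2.47 and 3.01 FPKM in HFD, against 0.665, 2.11 and 1.12 FPKM in control. For both genes HFD lay above HFD-Pc and overlapped control. Ano1 is made by epithelial and other cells too, and which cells held its RNA was not tested.

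The plot of interstitial cell genes adds the members of a further list of 12 genes that passed the test. The list mixes genes of interstitial cells of Cajal with genes of PDGFRA-positive interstitial cells. P2ry1, the purinergic receptor of the inhibitory response in the gut wall, had 14.2, 11.9 and 13.1 FPKM in HFD-Pc, 5.92, 6.20 and 6.99 FPKM in HFD, against 11.1, 11.4 and 13.2 FPKM in control. Its difference was -0.81 (SE 0.12, limma adjusted p = 0.0023) in HFD against control and 0.93 (SE 0.12, limma adjusted p = 0.0014) in HFD-Pc against HFD. Thbs4, a thrombospondin of the extracellular matrix, had 4.39, 8.72 and 2.21 FPKM in HFD-Pc, 98.7, 109 and 92.3 FPKM in HFD, against 15.7, 3.13 and 3.31 FPKM in control. Its difference was 3.91 (SE 0.55, limma adjusted p = 0.0020) in HFD against control and -4.19 (SE 0.55, limma adjusted p = 0.0017) in HFD-Pc against HFD. P2ry1 fell and Thbs4 rose in HFD, and both calls held with each library left out in turn. The other 9 tested genes of that list were called in no comparison with all 9 libraries. In HFD against control that is 1 higher and 1 lower of 11 tested, beside 10.6% and 9.11% of all genes. In HFD-Pc against HFD it is again 1 and 1 of 11, beside 4.54% and 7.6%. When control replicate 1 was left out, Etv1, Cacna1h and Adgrd1 were called higher in HFD-Pc than in HFD, and Kitl and Slc12a2 higher in HFD-Pc than in control. The list then had 4 called higher and 1 lower in HFD-Pc against HFD, beside 9.41% and 11.0% of all genes. In HFD-Pc against control it had 2 called higher, beside 1.82%.

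In HFD against control, 1 of the 31 genes was called higher (Ano1) and none lower, whereas 19.7% of all genes tested were called, 10.6% higher and 9.11% lower. The differences of the set ran from -1.44 to 1.44 with a median of -0.64, against -0.001 over all genes, and 4 of 31 lay above 0, as did 49.9% of all genes. The groups did not overlap for 10 genes on the lower side (Myl9, Mylk, Smtn, Tpm1, Tpm2, Pdlim3, Pdlim7, Hspb6, Dmpk and Kit) and 1 on the higher side, against 20.1% and 21.9% of all genes. At an unadjusted p below 0.05 there were 9 of the 31 genes, against 34.7% of all genes tested. Without control replicate 1 the differences were mostly smaller and mixed in direction: the median was -0.10, 12 genes lay above 0, 3 were called higher (Ano1, Chrm2 and Kcnmb1) and 1 lower (Pdlim3). That is 12.9% of the set, against 25.7% of all genes tested without that library (12.2% higher and 13.5% lower). Without control replicate 3 the shift was the other way: the median was -1.06 and 3 genes lay above 0. In that fit 5 genes were called lower (Myl9, Dmpk, Pdlim3, Pdlim7 and Hspb6) beside Ano1 higher. Of all genes tested, 2907 were called there, 54.2% of them higher, against 3535 and 53.8% with all 9 libraries.

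In HFD-Pc against HFD, none of the 31 genes was called in limma, against 12.1% of all genes tested (4.54% higher and 7.6% lower), and 5 had an unadjusted p below 0.05, against 26.8% of all genes. The median difference was 0.51, against -0.01 over all genes, and 28 of 31 lay above 0, as did 48.4% of all genes. The exceptions were Ano1, Chrm2 and Kcnmb1. The groups did not overlap for 14 genes on the higher side, against 18.7% of all genes, and for Ano1 on the lower side, against 20.3%. The 14 were Des, Cnn1, Actg2, Mylk, Synpo2, Tpm1, Cald1, Flna, Pdlim3, Pdlim7, Pln, Hspb6, Dmpk and Kit. Control replicate 1 does not enter these differences, but it enters the pooled spread and the filter, which left 17624 genes without it. Without it, 8 genes were called higher (Actg2, Mylk, Synpo2, Dmpk, Pdlim3, Kit, Hspb6 and Pln) and Ano1 lower, 29.0% of the set against 20.4% of all genes (9.41% higher and 11.0% lower). The same 9 genes were called when only the HFD-Pc and HFD libraries were in the fit. Calls over all genes rose there too, to 3210 (46.2% of them higher), from 2174 with all 9 libraries. With control replicate 1 kept and HFD-Pc replicate 1 left out, the median was 0.30. None was called in that fit, as in the fit of all 9 libraries. The share of all FPKM in the 31 genes averaged 0.922% ± 0.202 in HFD-Pc and 0.685% ± 0.045 in HFD (SD, n = 3 each; 2-sided exact permutation p = 0.10, the smallest possible, 0.18 adjusted over 9 tests).

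In HFD-Pc against control, none of the 31 genes was called, against 1.11% of all genes tested (0.262% higher and 0.843% lower), and none had an unadjusted p below 0.05, against 3590 of the 17907 genes tested. The groups overlapped for all 31 genes, whereas they did not overlap for 9.86% of all genes on the higher and 11.9% on the lower side. The lowest adjusted p in limma was 0.38, for Ldb3. The median difference was -0.19, with 12 genes above 0, as were 48.7% of all genes. Without control replicate 1 the median was 0.43 with 29 above 0, and 4 genes were called higher (Cald1, Synpo2, Ano1 and Kit), 12.9% of the set against 6.74% of all genes (1.82% higher and 4.91% lower). The sign of the median also turned with quantile normalization, without mitochondrial and immunoglobulin genes and with array weights, so no direction is read for the set here. The 3 comparisons share libraries and are not independent of each other.

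**Figure D3:**
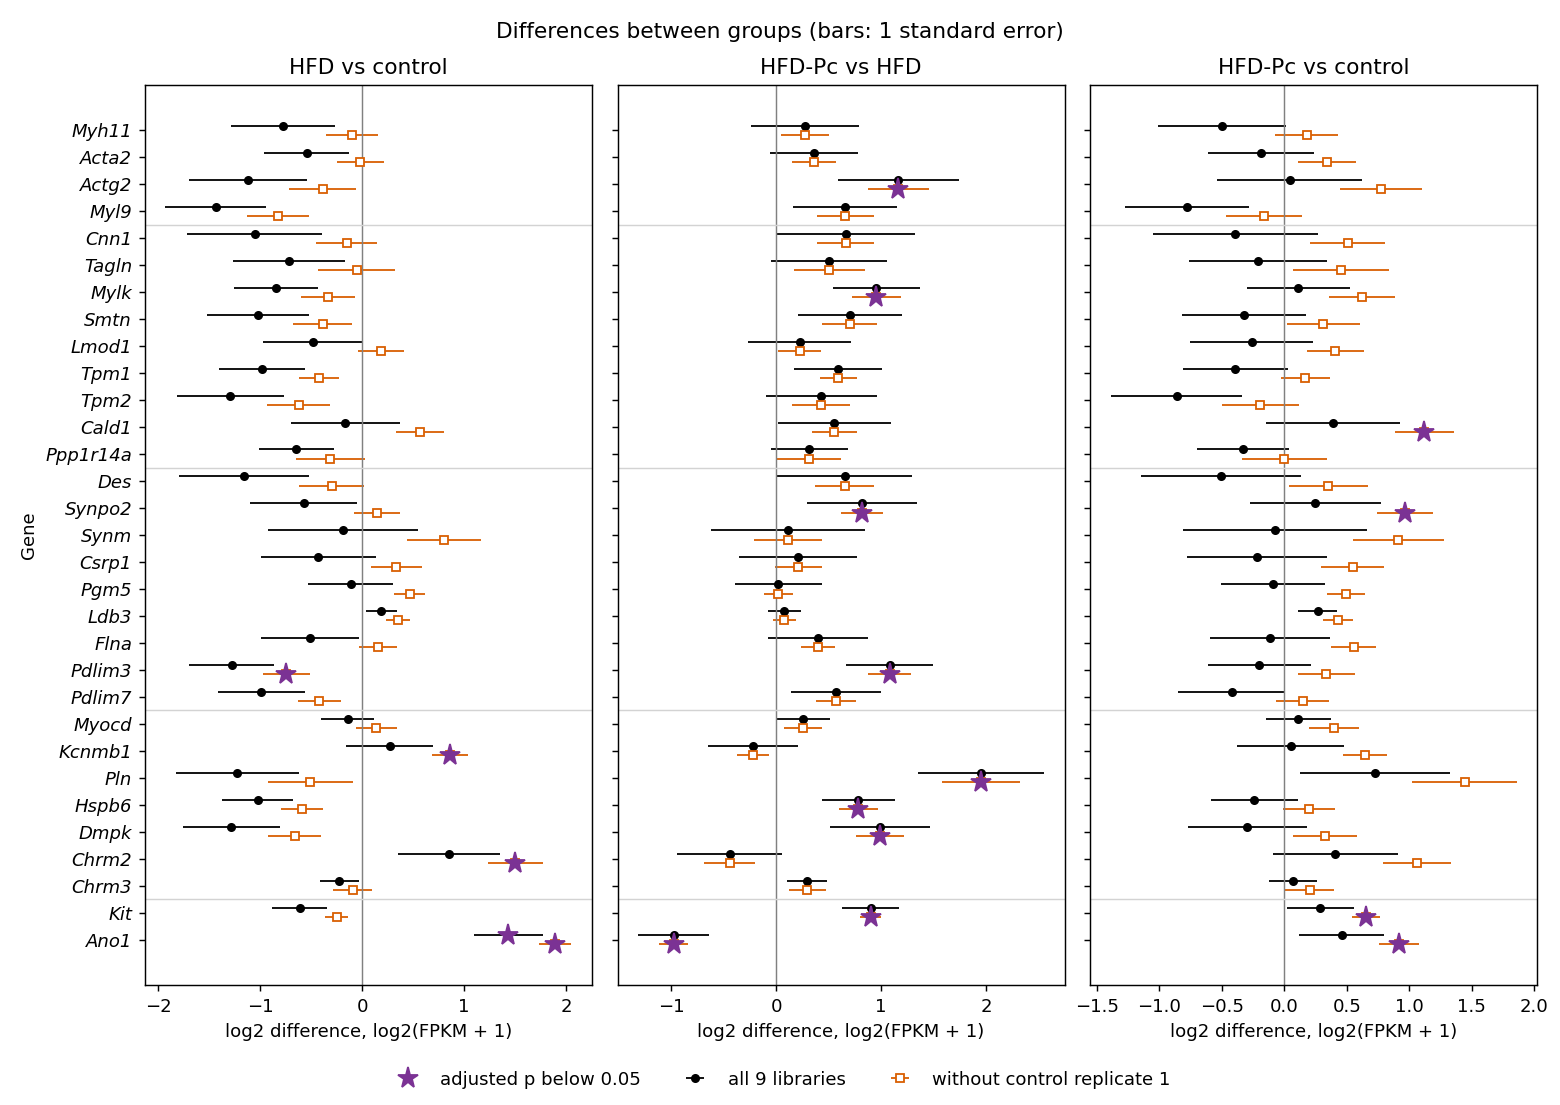
Log2 difference with its standard error for each of the 31 genes in each comparison, fitted with all 9 libraries (filled circles) and without control replicate 1 (open squares). Stars mark an adjusted p below 0.05: with all 9 libraries only Ano1 in HFD against control has one, and without control replicate 1 there are 4, 9 and 4 stars.

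The plot of differences shows that leaving out control replicate 1 shifts nearly the whole set to the right in both comparisons with control, and narrows most error bars. Rescaling moved the median less. With FPKM rescaled to a common total, the median difference of all genes in HFD against control was 0.24, and that of the 31 genes was -0.39, with 7 above 0.

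To see what remains once the level of the whole set is removed, each gene was expressed relative to the mean of the 31 genes in its own library, on the log2 FPKM scale. This measure was added after the values were seen and carries no test. The 3 HFD libraries lay above the other 6 for 5 genes (Ano1, Chrm2, Kcnmb1, Ldb3 and Pgm5) and below them for 4 (Actg2, Pdlim3, Hspb6 and Dmpk), with overlap for 22. On the log2(FPKM + 1) scale, Mylk and Tpm1 were also below, which made 6. The mean relative level in HFD minus that in the other 6 libraries was 1.86 for Ano1, 1.42 for Chrm2, 0.92 for Kcnmb1, -0.58 for Actg2 and -0.66 for Pdlim3. Actg2 relative to Acta2 in the same library was 1.41, 1.18 and 0.901 in HFD-Pc, 0.716, 0.547 and 0.719 in HFD, and 1.30, 0.930 and 0.773 in control. All 3 HFD ratios were below the other 6, with a 2-sided exact permutation p of 0.10 in HFD against control and in HFD-Pc against HFD (0.18 adjusted over 9 tests). In this ratio control replicate 1 lay within the range of the HFD-Pc libraries.

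**Figure D4:**
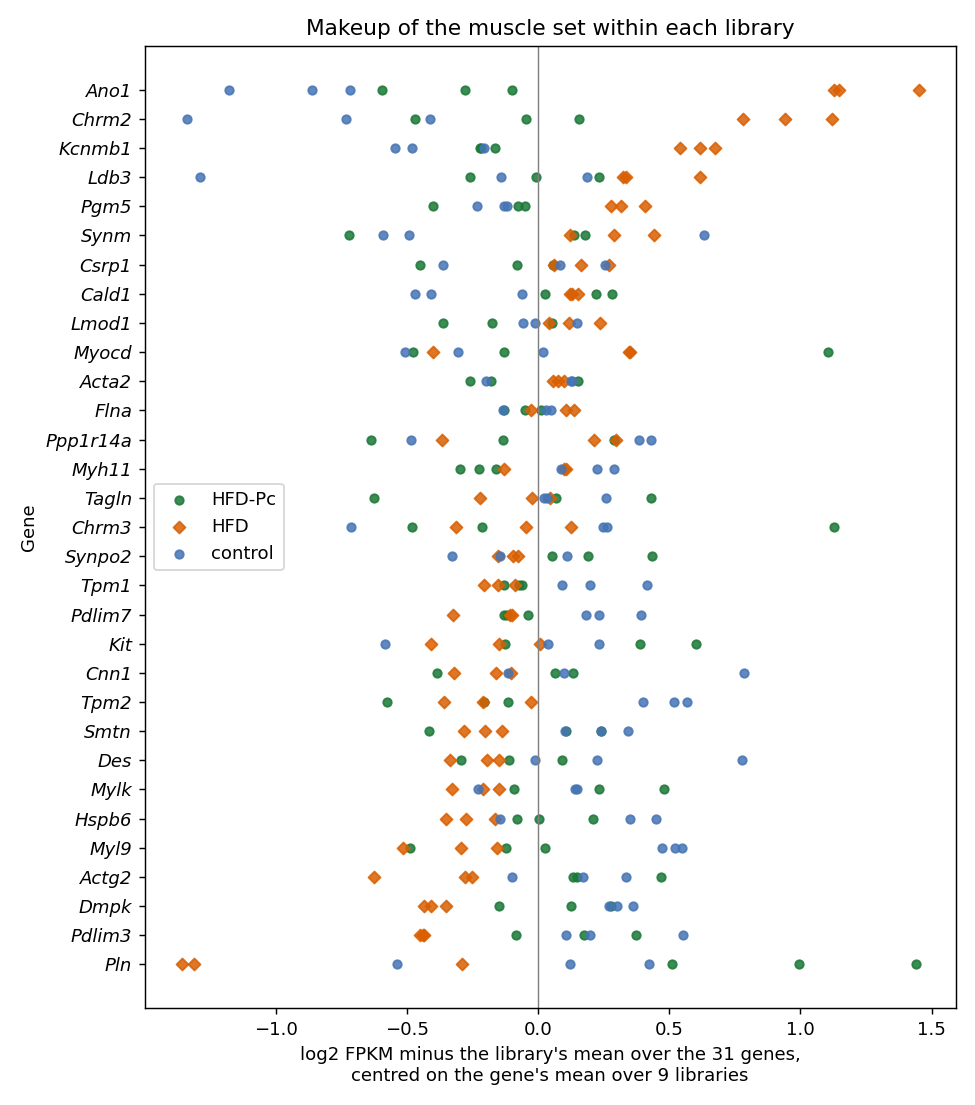
Level of each gene relative to the mean of the 31 genes in the same library (log2 FPKM), centred on the mean of that gene over the 9 libraries, with 1 point per library. The HFD points are the farthest right for Ano1, Chrm2, Kcnmb1, Ldb3 and Pgm5 and the farthest left for Actg2, Pdlim3, Hspb6 and Dmpk.

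The plot of relative levels shows these 9 genes at its ends together with Pln and Myl9. The HFD libraries overlapped the control ones for Pln and the HFD-Pc ones for Myl9. Other genes of the contractile apparatus were also often highest in control replicate 1. Of 38 further contractile genes, 37 were tested, and 30 had their highest value there. In HFD against control 1 was called higher and 3 lower, with a median of -0.21, and in HFD-Pc against HFD 3 were called higher and none lower, with a median of 0.33. The balance in HFD against control turned without control replicate 1, with 6 called higher, 1 lower and a median of 0.17, while in HFD-Pc against HFD 8 were called higher and 1 lower. Of all genes 19.7% were called in HFD against control and 12.1% in HFD-Pc against HFD, or 25.7% and 20.4% without control replicate 1. Myl6, the essential light chain, fell in HFD, at 185, 144 and 152 FPKM in HFD-Pc, 149, 189 and 118 FPKM in HFD, against 454, 265 and 275 FPKM in control (difference in HFD against control -1.10, SE 0.25, limma adjusted p = 0.018). The Myl6 call held with 7 of the 9 libraries left out in turn, and was lost without HFD replicate 1 or 4. Aoc3 was also called lower in HFD (-1.13, SE 0.33, limma adjusted p = 0.043). Fhl1 was the gene called higher (0.81, SE 0.245, limma adjusted p = 0.048), and each of these calls held in 1 of 9 such fits. Atp2a2, the calcium pump that phospholamban restrains, was higher in HFD-Pc than in HFD, at 63.9, 68.1 and 59.0 FPKM in HFD-Pc, 44.6, 46.1 and 47.8 FPKM in HFD, against 66.5, 53.6 and 54.8 FPKM in control (difference 0.45, SE 0.12, limma adjusted p = 0.048). The Atp2a2 call held in 1 of 9 such fits. Aoc3 (1.41, SE 0.33, limma adjusted p = 0.026) and Pde5a (0.63, SE 0.16, limma adjusted p = 0.035) were also called higher in HFD-Pc than in HFD. Their calls held in 5 and 4 of 9 such fits. Of 12 tested regulators of smooth muscle genes, 1 was called in HFD against control: Mef2c, a transcription factor of muscle and other cells, rose in HFD, at 1.11, 0.943 and 1.35 FPKM in HFD-Pc, 2.71, 2.22 and 2.66 FPKM in HFD, against 1.45, 0.835 and 0.513 FPKM in control (difference 0.89, SE 0.18, limma adjusted p = 0.011). It held in 9 of 9 such fits. In HFD-Pc against HFD, Mef2c and Mef2d were called lower, each in 2 of 9 such fits. The regulators called without control replicate 1 numbered 2 in HFD against control, both higher, and 4 in HFD-Pc against HFD, all lower.

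Markers of other cells in the gut wall differed in summed level between the same groups, and their part in the results above was not tested. The summed level of 12 pericyte and vascular genes was 183 to 267 FPKM in HFD-Pc, 80.3 to 90.3 FPKM in HFD and 138 to 359 FPKM in control. The pericyte gene Rgs5 made up most of this sum in every HFD-Pc and control library. Rgs5 had 216, 129 and 153 FPKM in HFD-Pc, 37.7, 38.0 and 34.3 FPKM in HFD, against 265, 98.4 and 89.25 FPKM in control. Of these 12, 4 were called lower in HFD than in control, with or without control replicate 1, while the median of the list was -0.08. The endothelial gene Pecam1 went the other way, at 3.25, 6.03 and 4.71 FPKM in HFD-Pc, 9.88, 8.51 and 7.68 FPKM in HFD, against 5.93, 6.63 and 4.92 FPKM in control, and Vwf was likewise highest in the 3 HFD libraries. Enteric neuron and glia genes summed to 144 to 268 FPKM in HFD-Pc, 73.6 to 77.3 FPKM in HFD and 109 to 299 FPKM in control. Of 17 tested, 7 were called lower in HFD than in control, and 6 higher in HFD-Pc than in HFD. These counts were 5 lower with 1 higher, and 14 higher, without control replicate 1. Both sums were lowest in the 3 HFD libraries and highest in control replicate 1, which was also the highest for the muscle sum. For the pericyte and vascular sum, the low HFD level lay largely in Rgs5. Leukocyte genes summed to 63.1 to 78.1 FPKM in HFD-Pc, 213 to 243 FPKM in HFD and 57.8 to 68.7 FPKM in control, with all 8 called higher in HFD than in control and all 8 lower in HFD-Pc than in HFD. The 12 fibroblast genes summed to 226 to 302 FPKM in HFD-Pc, 314 to 319 FPKM in HFD and 131 to 314 FPKM in control, with 3 called higher in HFD than in control, and 7 without control replicate 1. Adipocyte genes ranged widely within groups, from 115 to 368 FPKM in HFD-Pc, 26.7 to 125 FPKM in HFD and 101 to 1174 FPKM in control. Their highest library was control replicate 2, and 4 of 10 were called lower in HFD than in control, and 7 of 10 without control replicate 1. Mesothelial genes summed to 7.84 to 23.5 FPKM in HFD-Pc, 4.92 to 12.9 FPKM in HFD and 6.79 to 22.1 FPKM in control, with none of 5 called with all 9 libraries and 1 called higher in HFD-Pc than in HFD without control replicate 1. Skeletal muscle genes were low, at 9.24 to 12.7 FPKM in HFD-Pc, 5.93 to 10.7 FPKM in HFD and 9.75 to 37.0 FPKM in control summed over 12 genes. The defining markers Myh4 and Pvalb were at 0 in all libraries, and most of the sum came from Acta1 and Ckm. Of 3 tested, Ckm was called lower in HFD than in control. Control replicate 1 was the lowest control library for epithelial genes, of which 3 of 12 were called lower in HFD than in control, and 6 without that library. The counts in HFD against control stand beside 10.6% of all genes called higher and 9.11% lower, and 12.2% and 13.5% without control replicate 1. Those in HFD-Pc against HFD stand beside 4.54% higher and 7.6% lower, and 9.41% and 11.0% without control replicate 1.

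**Figure D5:**
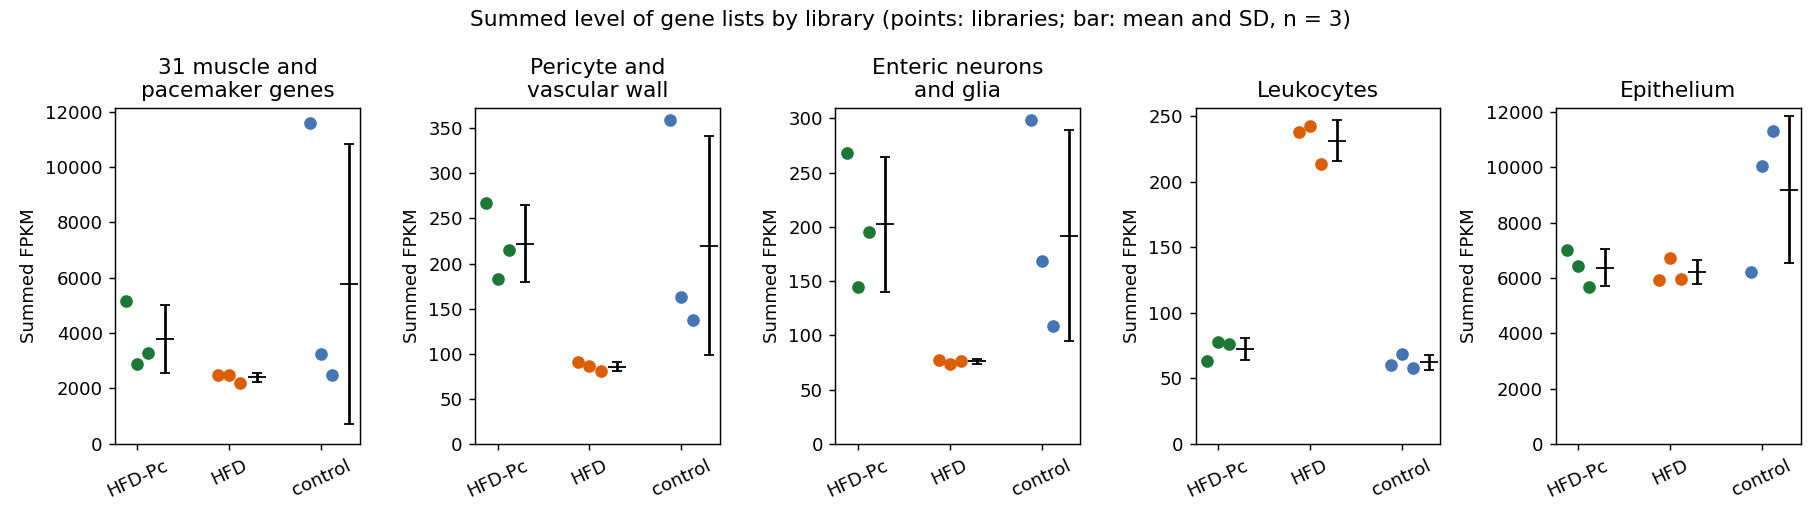
Summed FPKM of the 31 genes and of 4 lists of genes of other cell types in each library (points), with the mean and SD of each group (bars, n = 3). The muscle, vascular and neural sums share a high control replicate 1, leukocyte sums are high in HFD alone, and the epithelial sum of control replicate 1 is below those of control replicates 2 and 3.

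The plot of summed levels sets these lists side by side. Genes that mark position along the gut also separated the groups. Hoxb13, a gene of the most distal gut, stood at 0.227, 2.15 and 0.0516 FPKM in HFD-Pc, 118, 128 and 134 FPKM in HFD, against 7.73, 0.0598 and 0.0898 FPKM in control. Hoxd13, another distal gene, was at 0, 0.0483 and 0.137 FPKM in HFD-Pc, 86.0, 94.3 and 72.6 FPKM in HFD, against 0.450, 0 and 0.0266 FPKM in control. Both were chosen after their values were seen. They were high in all 3 HFD libraries, and Hoxb13 was highest outside HFD in control replicate 1. The labels do not give the stretch of colon taken, and the part of position along the gut in the differences above was not tested.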

How the data were processed

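RNA from colon was sequenced in 9 libraries, 3 in each of 3 groups, and the authors deposited 1 table of FPKM values for 54491 genes. Per the submitters' processing notes, the aligner was HISAT2 2.0.5 and the build GRCm39; for the counting tool, its strand setting and the annotation, no statement was found (not given in the sources used here). Groups were taken from the treatment labels and replicate numbers from the titles. Symbols and exon overlaps came from GENCODE M21, which is on another build, and promoter windows from RefSeq on GRCm38.p6.

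A gene had to reach 0.5 FPKM in 3 or more libraries, which left 17907. These were compared on log2(FPKM + 1) in limma 3.58.1 (R 4.3.3), using a variance trend and 1 fit of all 9 libraries without covariates. The design foresaw this test for normalised values. Benjamini-Hochberg adjustment ran over all genes within each of 3 comparisons, and the fit was tested on simulated data. The measure of relative level and the looser promoter motif were added after the data were seen. The ratios within a library and the exact permutation tests were not part of the design.

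The 31 genes, their roles and 12 lists were chosen with earlier results of these data known. The lists covered further contractile genes, smooth muscle regulators, further interstitial cell genes, mast cells, pericytes and vessels, fibroblasts and enteric neurons and glia. They also covered epithelium, skeletal muscle, mesothelium, adipocytes and leukocytes. Values in every library are given for the markers Des, Myh11, Acta2, Actg2, Cnn1, Tagln, Mylk, Myocd, Chrm2, Chrm3, Kit and Ano1, for called genes and for the 3 genes with the largest and the 3 with the smallest standard deviation over the 9 libraries; Myl9, Pdlim3, Kcnmb1, Hspb6 and Dmpk were added after their values were seen. From other lists at most 3 called genes per comparison were eligible. Hoxb13 and Hoxd13 were added after the data were seen.

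Total depth is unknown because FPKM carry no totals. For 93.6% to 94.8% of genes under 0.3 FPKM, the ratio to control replicate 1 matched that of whole numbers of at most 20 (tolerance 0.0005 in natural log), giving a relative depth of 0.822 to 1.10. Between libraries, 0 genes shared an identical value above 0. Within-group correlations were 0.928 to 0.978. Alternatives were another pseudocount (0.1), no filter or 1 FPKM, rescaling to a common total, quantile normalization, removal of mitochondrially encoded and immunoglobulin genes, 2 groups only, a replicate block, array weights, no trend, and each library left out in turn.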

Additional observations from a re-analysis of the deposited data

How the results depend on the processing

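With the alternatives run, no call reversed its direction. Of 1761 combinations of gene, comparison and setting for the 31 genes, 1594 kept direction and side of the threshold, 63 gained a call, 5 lost a call (all Ano1 in HFD against control) and 99 changed sign without a call.

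In HFD against control, 3535 genes were called, 1985 with the replicate block, 10600 with array weights and 1612 to 4527 with 1 library left out. Of the 31 genes, 1 was called higher, 0 with the block, 4 with array weights and 0 to 3 with 1 library left out. Lower calls numbered 0, 2 with the block (Pdlim3 and Hspb6), 12 with array weights and 0 to 5 with 1 library left out, the 5 (Myl9, Dmpk, Pdlim3, Pdlim7 and Hspb6) being without control replicate 3.

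In HFD-Pc against HFD, 2174 genes were called, 3210 with 2 groups only, 1288 with the replicate block, 4494 with array weights and 991 to 3603 with 1 library left out. Higher calls among the 31 numbered 0, 8 with 2 groups only, 1 with the block (Pln), 7 with array weights and 0 to 8 with 1 library left out. Lower calls numbered 0, 1 with 2 groups only, 1 with array weights and 0 to 1 with 1 library left out.

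In HFD-Pc against control, 198 genes were called, 15 with no filter, 302 with the 1 FPKM filter, 6 with a common total, 46 with quantile normalization, 415 without mitochondrial and immunoglobulin genes, 2 with 2 groups only, 0 with the replicate block, 4996 with array weights and 0 to 1187 with 1 library left out. Higher calls among the 31 numbered 0, 5 with array weights and 0 to 4 with 1 library left out. Their median of -0.19 became 0.02 with quantile normalization, 0.04 without mitochondrial and immunoglobulin genes and 0.36 with array weights. The cause of these shifts was not tested.

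The estimation of array weights stopped before convergence, so those counts are uncertain. The 1 FPKM filter dropped Myocd and Chrm3. Of called genes, 53.8% were higher in HFD than in control, 78.2% with a common total and 76.5% without mitochondrial and immunoglobulin genes. In HFD-Pc against HFD 37.4% were higher, and 25.3% with a common total. In HFD-Pc against control the share was 23.7%, and 77.1% without mitochondrial and immunoglobulin genes. Correlations of the deviations ran from -0.16 to 0.19 over 6 pairs of same-numbered libraries, and from -0.17 to 0.15 over 21 other pairs. So few pairs cannot show whether the replicate numbers pair the samples, and the labels state no pairing.

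Total depth is unknown, so no counting error can be given for any value, and 3 libraries in a group limit the precision of every comparison.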
